A study of Mus musculus with 2 samples.

Results

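The mitochondrial ribosomal proteins are the nuclear-encoded proteins of the ribosome inside mitochondria, and they were taken here by gene symbol. Probe sets with exactly 1 gene symbol that began with Mrpl or Mrps and a digit gave 77 genes out of 19938 named genes, of which 48 were large-subunit (Mrpl) and 29 small-subunit (Mrps) genes. A gene with several probe sets was read from the brightest of them on average. Of the 78 protein-coding mouse genes in RefSeq whose symbols match, only Mrpl53 was outside, because its probe set also carried the symbol Ccdc142. That shared probe set read 229 and 214 on the arrays labelled DKO and ApoE-KO.

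The tissue was inguinal white fat, which lies under the skin of the groin, from male littermates of the C57BL/6J strain. The control group lacked apolipoprotein E (ApoE-KO, ApoE-/-), and the other group lacked both ApoE and uncoupling protein 1 (UCP1/ApoE-DKO, Ucp1-/-;ApoE-/-), so the ApoE deletion was shared by both groups. All mice were kept at 23 °C and ate a high-fat diet for 9 weeks from 9 weeks of age. RNA of 3 mice per genotype was pooled and each pool went onto 1 Affymetrix array, so that 2 arrays were compared, the spread between mice was not measured, and no value below has an error or a p-value. Differences are given as DKO-labelled minus ApoE-KO-labelled array in log2 intensity. Pairs of intensities are given in that order, DKO-labelled first.

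The mitochondrial ribosome translates the messenger RNAs of the mitochondrial genome, all of which encode core subunits of the respiratory chain and of ATP synthase. All of its proteins are made in the cytosol from nuclear genes and imported, and they assemble on ribosomal RNAs transcribed from mitochondrial DNA. Many members descend from bacterial ribosomal proteins, and others have no counterpart outside mitochondria. In brown and beige adipocytes, which carry many cristae-rich mitochondria, this translation supplies the mitochondrially encoded part of a large respiratory chain.

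Promoter sequences were read first, since 76 of the 77 members differed in the same direction. RefSeq promoter windows (mouse build GRCm38.p6, 250 bases before to 50 after the start) were matched to 68 members. Mrpl4, Mrpl13, Mrpl15, Mrpl19, Mrpl38, Mrpl54, Mrps28, Mrps34 and Mrps35 had no entry. Letters of the sites of 4 transcription factors or factor families known to act at nuclear genes of mitochondrial proteins were searched on both strands. The full NRF1 letters (GC followed directly by GCATGCGC, a run that reads the same on both strands) were found in 3 of the 68 members (4.41%), against 1.07% of 27025 genes with a window and 2.46% of the 7924 that were on or above the expression floor used below. The shorter NRF1 core (GCATGCGC), which lies inside the longer form, was found in 8 members (11.8%, against 3.05% of all genes and 6.06% of those on or above the floor). The letters of ETS factors such as GABP (CCGGAAGT) were found in 12 members (17.6%, against 4.31% and 9.24%), those of YY1 (AAGATGGCG) in 8 (11.8%, against 1.64% and 3.74%), and those of the estrogen-related receptors (AAGGTCA) in 4 (5.88%, close to the 5.38% of all genes, and 3.89% of those on or above the floor). These are matches of letters and not measured binding sites.

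The stretches printed here set members with such letters beside the members at the ends of the range. Each is the 150 bases before the start, 5′ to 3′ on the gene's own strand, with every matched letter run in capitals, and all are on GRCm38.p6. The first group holds the members with the full NRF1 letters.
Mrpl9, chr3:94443186-94443335, plus strand: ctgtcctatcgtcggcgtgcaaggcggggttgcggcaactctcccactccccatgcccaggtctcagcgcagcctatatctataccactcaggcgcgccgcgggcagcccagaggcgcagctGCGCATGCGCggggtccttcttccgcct
Mrpl32, chr13:14613038-14613187, minus strand: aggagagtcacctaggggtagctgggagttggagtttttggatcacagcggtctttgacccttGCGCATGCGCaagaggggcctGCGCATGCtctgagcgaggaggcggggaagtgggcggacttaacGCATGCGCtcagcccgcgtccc
Mrpl39, chr16:84735245-84735394, minus strand: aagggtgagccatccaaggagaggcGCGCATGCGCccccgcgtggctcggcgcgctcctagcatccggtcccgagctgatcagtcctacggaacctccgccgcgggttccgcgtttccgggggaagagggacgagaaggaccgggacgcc
The next pair are examples of members with the letters of the estrogen-related receptors. In Mrpl36 these lie beside those of YY1, both read there from the strand opposite to the gene.
Mrpl36, chr13:73330859-73331008, plus strand: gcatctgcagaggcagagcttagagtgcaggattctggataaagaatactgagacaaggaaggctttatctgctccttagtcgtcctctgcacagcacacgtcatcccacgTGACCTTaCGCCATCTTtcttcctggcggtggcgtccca
Mrps21, chr3:95871515-95871664, minus strand: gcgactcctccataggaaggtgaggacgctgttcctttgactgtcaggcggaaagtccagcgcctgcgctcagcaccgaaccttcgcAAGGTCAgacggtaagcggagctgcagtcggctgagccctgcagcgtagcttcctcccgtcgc
The last pair are the members with the largest and the smallest difference, and neither stretch holds any of these letters.
Mrps36, chr13:100744660-100744809, minus strand: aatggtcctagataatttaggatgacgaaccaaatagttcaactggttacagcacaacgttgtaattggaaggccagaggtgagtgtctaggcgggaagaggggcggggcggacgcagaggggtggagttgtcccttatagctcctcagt
Mrps16, chr14:20393635-20393784, minus strand (the upstream of its listed starts): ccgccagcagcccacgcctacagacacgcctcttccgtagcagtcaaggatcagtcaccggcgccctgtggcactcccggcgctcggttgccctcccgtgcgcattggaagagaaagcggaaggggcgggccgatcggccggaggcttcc

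Members with and without these letters had similar median differences, which were not tested. The median was 0.50 with the full NRF1 letters and 0.61 without, 0.53 with the ETS letters and 0.61 without, 0.68 with the YY1 letters and 0.59 without, and 0.67 with the letters of the estrogen-related receptors and 0.60 without. With the shorter NRF1 core it was 0.54 and without it 0.61. The medians with letters lay inside the middle 50% of all 77 members, which ran from 0.40 to 0.75. They rest on only 3 (full NRF1) to 12 (ETS) members. Of the members printed, Mrpl9 stood at 0.75, Mrpl32 at 0.42, Mrpl39 at 0.50, Mrpl36 at 0.70 and Mrps21 at 0.75. The other members with the letters of the estrogen-related receptors, not printed, were Mrpl12 at 0.64 and Mrps15 at 0.32.

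Genes of the mitochondrial ribosome were higher on the DKO-labelled array almost without exception, and by a modest amount. The difference was above 0 for 76 of 77 members, where 46.4% of all named genes were above 0. The median was 0.60, which is 1.52-fold, against -0.01 for all named genes, and 7.33% of genes on or above the floor (defined below) exceeded it. The single exception was Mrps16 of the small subunit, which read 645 and 666, a difference of -0.05 that turned to 0.01 when the arrays were centred on their medians. The members' interquartile range was 0.35, near the 0.39 of all 9891 genes on or above the floor, so they were about as spread among themselves as genes at large. The floor, at an intensity of 196.9, is the midpoint of the named probe sets ranked by mean log2 intensity and is no detection limit. The probe set of Mrps10 is itself that median.

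**Figure D1:**
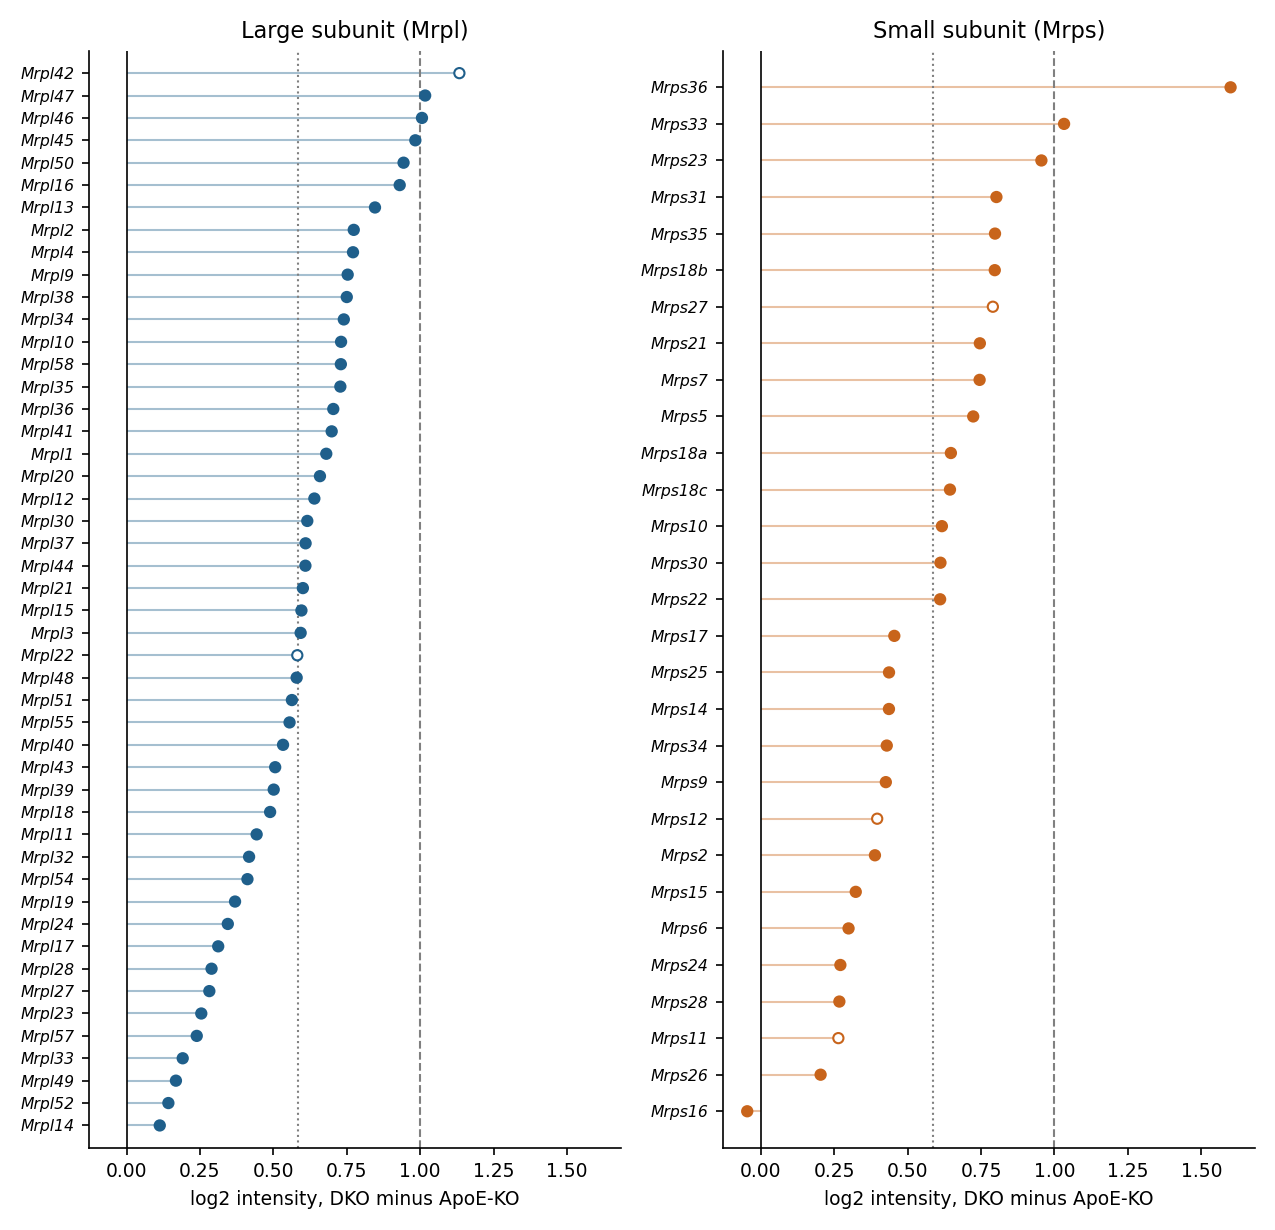
Difference in log2 intensity (horizontal axis, DKO-labelled minus ApoE-KO-labelled array) for each of 48 large-subunit and 29 small-subunit genes, with 1 array per genotype. Filled points are genes on or above the floor and open points are below it. The dotted line marks 1.5-fold and the dashed line 2-fold. All points but Mrps16 lie to the right of 0, and Mrps36 lies apart at 1.60.

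Few members passed 2-fold. Of the 72 members on or above the floor, 4 were at least 2-fold higher (5.56%), and 2.79% of all genes on or above the floor were. That count became 2 with probe sets averaged per gene, 1 with an offset of 50 added to each intensity, 5 after loess scaling and 6 after median centring. None was at least 2-fold lower, where 0.698% of all such genes were. At 1.5-fold, 39 of the 72 (54.2%) were higher, against 7.57% of all genes on or above the floor, and 0 were lower, against 3.73%. The group's shift was spread over many members and did not rest on a few large ones. Brighter and dimmer members had like differences: the median was 0.61 in the 39 brighter and 0.60 in the 38 dimmer members.

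**Figure D2:**
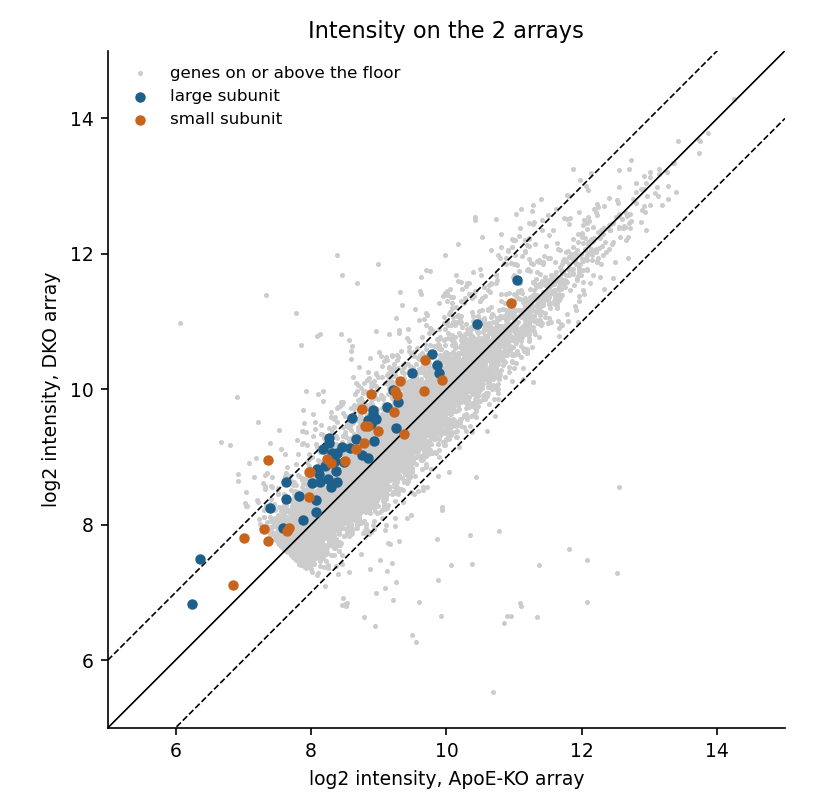
Log2 intensity on the DKO-labelled array (vertical) against log2 intensity on the ApoE-KO-labelled array (horizontal). Grey points are the 9891 genes on or above the floor, coloured points the 77 members; the solid line is equality and the dashed lines are 2-fold. Nearly all members lie between equality and the upper 2-fold line, at low and at high intensity; Mrps16 lies just below equality.

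Both subunits were higher to about the same extent. The median was 0.60 over the 48 large-subunit genes and 0.61 over the 29 small-subunit genes. All 48 large-subunit genes were higher, between 0.11 (Mrpl14) and 1.13 (Mrpl42), and 28 of the 29 small-subunit genes were, between 0.20 (Mrps26) and 1.60 (Mrps36). For description, the small subunit was cut into an upper set of 15 genes, at 0.61 or more, and a lower set of 14, between -0.05 and 0.45. This cut was made after the values were seen. No small-subunit gene lay in the gap of 0.16 between them, where 13 large-subunit genes lay. Wider gaps lay at the ends, between Mrps36 (1.60) and Mrps33 (1.03) and between Mrps26 (0.20) and Mrps16 (-0.05). The small-subunit median sits at the edge of the gap of 0.16. Counting Mrps18a and Mrps30 with the large subunit, where structures place their proteins, and leaving out Mrps36 brought it to 0.45, with the large subunit at 0.60.

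In the large subunit the largest differences on or above the floor belonged to Mrpl47 and Mrpl46. Mrpl47 encodes the counterpart of bacterial L29, at the rim of the tunnel through which the new protein leaves. It read 620 and 307, a difference of 1.02. The gene has a second probe set, which read 229 and 210, a difference of 0.13, so its call of 2-fold rests on the brighter probe set. Mrpl46, a protein of the central protuberance found only in mitochondria, read 397 and 198 (1.01). Mrpl45, which lies at the tunnel exit and helps to hold the ribosome on the inner membrane, read 767 and 388 (0.98, just under 2-fold). Mrpl50 read 557 and 289 (0.94).

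Genes near the catalytic core were spread over the subunit's range. Mrpl16, Mrpl2 and Mrpl4 are counterparts of bacterial proteins near the peptidyl transferase centre, where peptide bonds form, or lining the tunnel that leads from it. Mrpl16 read 588 and 309 (0.93). Mrpl2 read 829 and 485 (0.77), and Mrpl4 read 1014 and 594 (0.77). Mrpl3 of the same region read 752 and 499 (0.59), while Mrpl27, whose bacterial counterpart reaches towards the transfer RNAs, read 522 and 430 (0.28). Over these 5 genes the median was 0.77, with Mrpl3 and Mrpl27 below the median of the subunit. Mrpl13, another counterpart of a bacterial protein, read 304 and 169, a difference of 0.85 that became 0.63 with its lower value raised to the floor.

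The stalk that recruits translation factors was near the middle of the subunit. Mrpl12, the stalk protein that is also reported to bind the mitochondrial RNA polymerase, read 432 and 277 (0.64). Mrpl10, which carries it, read 1468 and 884 (0.73), and Mrpl11 at the stalk base read 487 and 358 (0.44). Mrpl54 of the same region read 442 and 332 (0.41). All 4 were higher, with a median of 0.54. The 5 genes assigned here to the central protuberance lay between 0.53 and 1.01, with a median of 0.73. That list was drawn up after the values were seen and may not be complete. Among them was Mrpl58 (also called Ict1), a release-factor relative that became part of the ribosome and frees peptides from stalled ribosomes, which read 452 and 272 (0.73).

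The lower end of the large subunit was made up of small differences, all above 0. Mrpl14 read 291 and 269 (0.11), Mrpl52 read 508 and 461 (0.14), and Mrpl49 read 687 and 611 (0.17). Mrpl33 read 269 and 235 (0.19), and Mrpl57 read 395 and 335 (0.24). In each of the 5 the fold was below 1.2. At the tunnel rim, Mrpl23 (0.25, or 0.14 by its second probe set), Mrpl17 (0.31) and Mrpl24 (0.34) were low. They stood well below Mrpl45 and the brighter probe set of Mrpl47 of the same region, so genes of that region spanned much of the range. Mrpl42, which had the largest difference of the subunit, and Mrpl22 were below the floor: Mrpl42 read 180 and 82.1 and Mrpl22 read 114 and 75.9, and with values under the floor raised to it both differences were 0.

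In the small subunit Mrps36 stood apart from every other member. It read 498 and 164, which is 1.60 in log2 or 3.03-fold, and its second probe set read 364 and 121 (1.59). With the lower value raised to the floor the difference was 1.34. Despite its symbol, the protein is known as a component of the 2-oxoglutarate dehydrogenase complex of the tricarboxylic acid cycle and not as a part of solved ribosome structures. The genes of the other subunits of that complex, named here after their values were seen, were higher as well: Dlst stood at 1.45, Dld at 1.40 and Ogdh at 1.04, the last level with Mrps33.

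The next 4 genes of the small subunit, Mrps33, Mrps23, Mrps31 and Mrps35, encode proteins found only in mitochondria. Mrps33 read 972 and 475 (1.03), and its second probe set, at 784 and 415 (0.92), was under 2-fold. Mrps23 read 838 and 432 (0.96). Mrps31 read 440 and 252 (0.80), and Mrps35 read 438 and 252 (0.80). Counterparts of bacterial proteins followed: Mrps21 read 1380 and 823 (0.75), and Mrps7, which nucleates the head of the small subunit in bacteria, read 1011 and 603 (0.75). By origin, the 18 small-subunit genes with a bacterial counterpart had a median of 0.43 and the 10 found only in mitochondria one of 0.70. With subunits taken by structure these medians were 0.43 over 17 genes and 0.79 over 9. The gap was smaller on or above the floor, at 0.45 over 16 genes and 0.61 over 9. By structure it was 0.44 over 15 and 0.70 over 8 there. Mrps18a, Mrps18b and Mrps18c were all counted as having a bacterial counterpart. In the large subunit the same split gave 0.60 over 29 genes and 0.59 over 18, and whether the split differs between the subunits was not tested.

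Mrps18a, Mrps18b and Mrps18c form a family of paralogs, all related to bacterial S18. Mrps18b read 1109 and 638 (0.80), Mrps18a read 701 and 447 (0.65), and Mrps18c read 965 and 617 (0.64). The proteins sit at different places, Mrps18a in the large subunit, yet the genes differed by like amounts. Mrps30, whose protein likewise lies in the large subunit, read 479 and 313 (0.61).

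Genes of the decoding and messenger RNA sites were found in both sets of the small subunit. Mrps5, the counterpart of bacterial S5 at the messenger RNA entry, was in the upper set, at 500.3 and 303 (0.72). Mrps12, whose bacterial counterpart monitors decoding, was below the floor on average and read 217 and 165 (0.40, or 0.14 with the lower value raised to the floor). Mrps24, the counterpart of bacterial S3 at the messenger RNA entry, read 247 and 204 (0.27). Mrps28 read 241 and 199.9 (0.27), and Mrps6 read 1003 and 815 (0.30). Mrps26 read 1132 and 983 (0.20), which left Mrps16 as the only small-subunit gene below it. Mrps11 and Mrps27, with Mrps12, were the small-subunit genes below the floor. Mrps11 read 138 and 115, and Mrps27 read 223 and 129.

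Several members have pseudogenes named after them, and which part of a gene its probe set reads is unknown here. RefSeq lists pseudogenes for Mrpl23, Mrpl27, Mrpl48, Mrpl51, Mrps33 (1 each) and Mrps36 (3). Their sequences were not compared with those of the genes, so whether a probe set also reads such a copy is unknown. For the 8 members with several probe sets, both probe sets were higher on the DKO-labelled array in each case. They were close for Mrps36, Mrps5 (0.72 and 0.70) and Mrpl27 (0.28 and 0.31). They were farther apart for Mrpl47, for Mrpl41 (0.70 and 0.34, the second below the floor) and for Mrpl51 (0.56 and 0.83). The 2 probe sets of Mrpl23 were about equally bright on average and stood at 0.25 and 0.14.

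Of mitoribosomal proteins whose symbols do not match the rule, 4 were measured. The 7 symbols listed also held Aurkaip1, for which no value was found. The remaining symbols, Ict1 and Mrp63, are older names of the members Mrpl58 and Mrpl57. Ptcd3, a pentatricopeptide protein at the messenger RNA entry of the small subunit, read 806 and 357 (1.18). Dap3, a GTP-binding protein of the small-subunit head, read 437 and 307 (0.51), Chchd1 read 197.1 and 159 (0.31, below the floor), and Gadd45gip1 of the large subunit read 292 and 288 (0.02). All 4 values lay inside the range of the members, but Ptcd3 did so only because of Mrps36. The largest difference among the other members was 1.13.

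Factors that work on the ribosome during translation were higher too. All 16 measured translation factors were above 0, with a median of 0.60 and a mean of 0.65. The members had a median of 0.60 and a mean of 0.58. Of the 15 factors on or above the floor, 2 were at least 2-fold higher, against 2.79% of all such genes. Gfm1, the elongation factor that moves the ribosome along, read 2183 and 836 (1.38). Lrpprc, which stabilises mitochondrial messenger RNAs, read 1097 and 546 (1.01), and its partner Slirp stood at 0.70. Tufm, which delivers aminoacyl-transfer RNA, read 1310 and 658 (0.99), and Taco1, a translational activator of cytochrome c oxidase subunit I, stood at 0.97. Initiation factor Mtif2 stood at 0.73, the exchange factor Tsfm at 0.58 and the recycling factor Mrrf at 0.43.

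Genes that build the ribosome or charge its transfer RNAs had smaller differences. Of 27 measured assembly and ribosomal RNA modification genes, 24 were higher, with a median of 0.43. Of the 24 on or above the floor, 0 passed 2-fold in either direction. Among all genes on or above the floor, only 2.79% were at least 2-fold higher and 0.698% lower, so few would be awaited in so short a list. The rRNA methyltransferase gene Nsun4 (0.77), the methyltransferase gene Mrm3 (0.69), the GTPase gene Mtg1 (0.68) and C1qbp (0.63) led this list. Among the other assembly GTPase genes, Noa1 (0.56), Eral1 (0.55) and Gtpbp10 (0.40) were higher and Mtg2 stood at -0.19. Of 19 genes of mitochondrial aminoacyl-transfer RNA synthesis, 18 were higher, with a median of 0.41 and again 0 past 2-fold. Fars2 (0.89), Gatb (0.85), Rars2 (0.60) and Sars2 (0.56) were the largest on or above the floor. Only 4 of the 27 and 2 of the 19 genes exceeded the members' median.

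**Figure D3:**
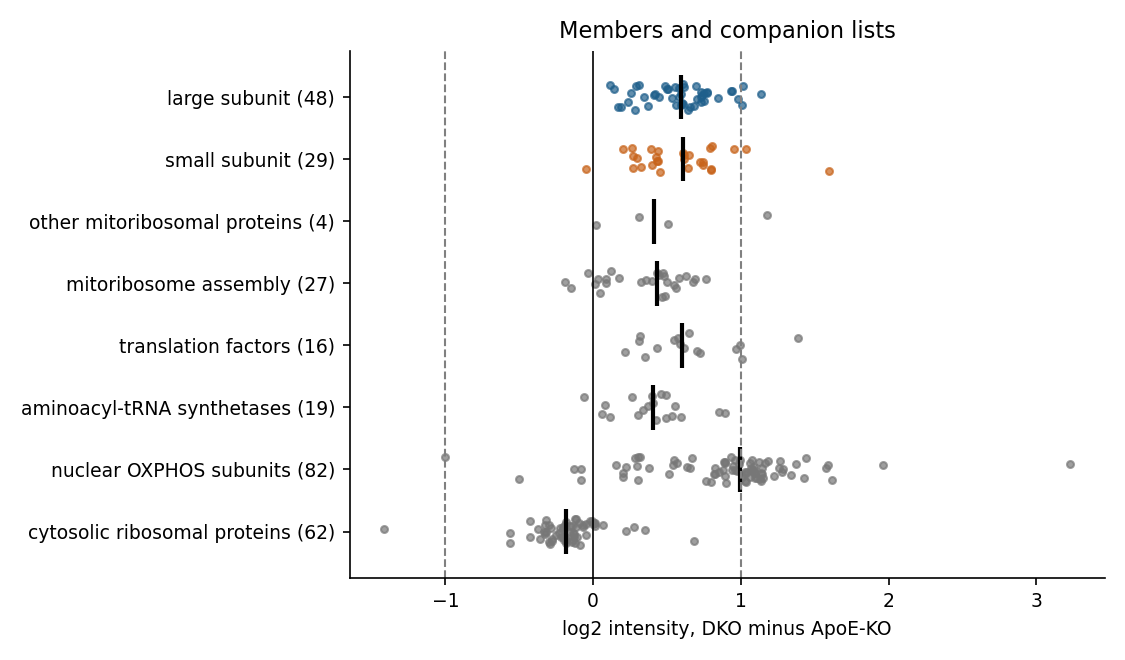
Difference in log2 intensity (horizontal axis, DKO-labelled minus ApoE-KO-labelled array) for each measured gene of the members and of 6 companion lists, with the number of genes in brackets; black bars are medians, dashed lines 2-fold in either direction. The ribosomal members (medians 0.60 and 0.61) lie between nuclear OXPHOS subunits (0.99) and cytosolic ribosomal proteins (-0.18). Vertical scatter within a list has no meaning.

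The members differed by less than the nuclear subunits of the respiratory chain and ATP synthase, whose mitochondrially encoded partners they make. The 82 nuclear OXPHOS genes had a median of 0.99, which is 0.39 above that of the members. Of their 75 genes on or above the floor, 40 were at least 2-fold higher, against 4 of 72 members and 2.79% of all such genes. Of the 82, 63 exceeded the members' median, and 5 of the 77 members exceeded the OXPHOS median. That OXPHOS list includes tissue isoforms, such as Cox7a1 of muscle and brown fat (3.23) and Cox6a2 of heart and muscle, the 1 gene of the list on or above the floor that was at least 2-fold lower. Cytosolic ribosomal proteins went the other way: their median was -0.18 over 62 genes, 8 were above 0, and 1 (Rps27l, at 0.68) exceeded the members' median. With 1 array per genotype, none of these differences between lists was tested. The protein-coding genes of the mitochondrial genome itself were searched for by symbols with the prefix mt-, and 0 were found. Other symbols for them were not searched, so these genes were not analysed here.

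Some members share a promoter region with a neighbour transcribed in the opposite direction. In the RefSeq windows, 26 of 68 members had such a head-to-head partner with its start within 1000 bases. The same count over all genes with a window was not made, so whether this share is particular to the members is unknown. Of the partners that were no members themselves, 15 were measured on or above the floor, and their median difference was 0.15, against 0.62 for the 15 members facing them. The member had the larger difference in 11 of the 15 pairs. In some pairs both genes were higher by like amounts. Mrpl47 faced Ndufb5, which encodes a complex I subunit (1.02 and 1.14), and Mrps18b faced Ppp1r10, a regulatory subunit gene of protein phosphatase (0.80 and 0.63). Mrps27 faced Ptcd2, a mitochondrial RNA processing gene (0.79 and 0.77), and Mrps12 faced Sars2, the mitochondrial seryl-transfer RNA synthetase gene (0.40 and 0.56), with both of these members below the floor. Mrpl32 faced the proteasome subunit gene Psma2 (0.42 and 0.53).

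Other pairs were split. Mrpl50 stood at 0.94 and its partner Zfp189, a zinc finger gene, at -0.09. Mrps7 stood at 0.75 and Gga3, an adaptor of membrane traffic, at -0.14. Mrpl40 stood at 0.53 and Hira, a histone chaperone gene, at -0.24. Mrpl49 stood at 0.17 and Fau, which encodes a cytosolic ribosomal protein fusion, at -0.23. The reverse was seen for Mrpl14, at 0.11, whose partner Tmem63b stood at 0.88. One pair consisted of a member of each subunit, Mrpl46 (1.01) and Mrps11 (0.26, below the floor), whose starts lie 42 bases apart. The whole stretch between their starts is shown because it separates starts of genes with unlike differences, and it holds none of the searched letters.
Mrpl46 and Mrps11, chr7:78783090-78783130 on GRCm38.p6, plus strand (5′ to 3′ towards Mrps11): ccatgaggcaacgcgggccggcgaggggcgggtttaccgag

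**Figure D4:**
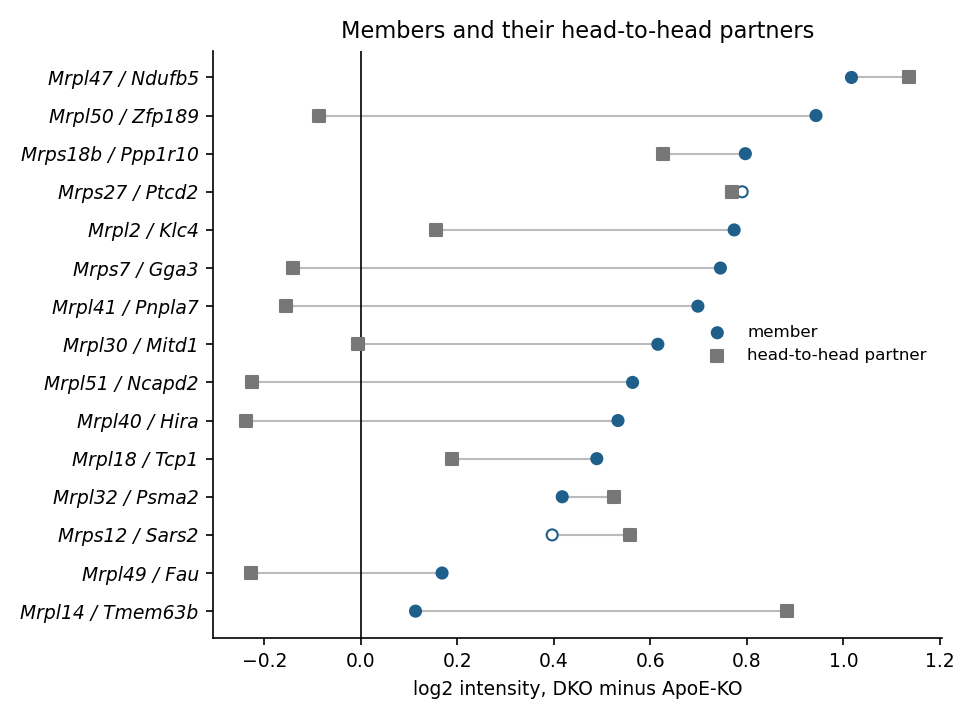
Difference in log2 intensity (horizontal axis, DKO-labelled minus ApoE-KO-labelled array) of 15 members (circles; open where the member is below the floor) and of the head-to-head partner of each (squares). The partner lies to the left of the member in 11 pairs, and in 7 of these the partner is below 0.

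Every value above was measured beside the following targeted genes and tissue markers. The Ucp1 probe set read 2230 and 219, opposite to the genotype labels if it reads the deleted part of the gene, and where its probes lie is unknown here; all directions above rest on the labels. Apoe, disrupted in both groups, read 502 and 589. Markers of mature adipocytes were alike (10 genes, median difference 0.05, summed intensity 47638 and 45802). Of 10 brown and beige markers, 9 passed 2-fold upward (median 2.93, summed intensity 22872 and 3493), against 2.79% of genes on or above the floor. Ucp1 itself is among these 9, and Prdm16, at 0.13, was the marker that did not pass. All 16 skeletal muscle markers were lower on the DKO-labelled array (median -4.25, summed intensity 2302 and 40448, with 14 of 16 below the floor there), as were all 6 markers each of B cells (median -1.11, summed intensity 2642 and 5492), macrophages (-0.54, 4408 and 6504) and fibroblasts (-0.59, 12982 and 19909). No marker was at 0 in either array. In pooled tissue RNA, fewer cells of a type and less RNA per cell cannot be told apart, and the part of these markers' cells in the members' differences was not tested.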

How the data were processed

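The authors deposited 1 linear intensity per probe set and array (35557 probe sets, 3.55 to 23636). Per the labels' protocols, Trizol RNA was labelled with biotin. No source used here states how scans were corrected, summarised or scaled. Median intensities were 152.1 (DKO) and 157.65 (ApoE-KO). The deposited values carry no detection call.

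Log2 was taken with no pseudocount. The platform annotation gave 1 symbol to 21789 probe sets, several to 1621 and none to 12147. All 77 members matched RefSeq (GRCm38.p6) by Entrez identifier. A single array per group allows no test, so a gene was counted at 2-fold or 1.5-fold on or above the floor. Values given in full are chiefly those of the largest and smallest differences in each subunit and of preset landmark genes. Mrpl3, Mrpl10, Mrpl11, Mrpl27, Mrpl54 and Mrps5 were added for their ribosome sites after the values were seen. Members below the floor were given as well. Members and lists were chosen with earlier results of these data known, and ribosome sites and origin classes were assigned from general knowledge after the values were seen. The calculation was tested on simulated data. Alternatives were quantile, median and loess (span 0.4) scaling, an offset of 50, other probe set rules, floors and thresholds, and subunits by structure. Python 3.11.15, pandas 2.3.3 and statsmodels 0.14.6 were used.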

Additional observations from a re-analysis of the deposited data

How the results depend on the processing

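The median of all members stayed between 0.54 and 0.65, that of the large subunit between 0.55 and 0.65, and between 73 and 77 members were above 0 under the alternatives run (73 where values under the floor were raised to it, which put 3 members at 0). Mrps16 was the only member below 0 under any of them and stood at 0.01 with median centring. The small-subunit median moved to 0.49 with the offset of 50, 0.44 with the floor as the lowest value and 0.45 with subunits by structure. The count of members at least 2-fold higher was 4, and became 1 with the offset of 50 or with the floor at percentile 75, 2 with the mean of probe sets or, chosen after seeing the data, the probe set with the lower mean, 39 at 1.5-fold, 5 with loess or no floor, and 6 with median centring. Mrpl47 stood at 0.57 and Mrps33 at 0.97 with the mean of probe sets, and Mrpl46 at 0.85 with the offset; Mrpl45 (1.04) and Mrps23 (1.01) passed 2-fold with median centring. Scalings moved the median of all named genes by less than 0.1. No paired analysis was possible because each group has 1 array. The number of arrays and the unknown background limit every value.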
